A study of Mus musculus with 8 samples.

Results

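The sodium-potassium pump subunits described here are the 5 genes Atp1b1, Atp1b2, Atp1b3, Fxyd6 and Fxyd7, taken by gene name from the 45706 genes of the deposited tables. The pump, a membrane ATPase, moves sodium out of the cell and potassium in, and so restores the gradients that action potentials run down. Its catalytic alpha subunit reaches the plasma membrane only together with a beta subunit, a glycoprotein encoded here by Atp1b1, Atp1b2 and Atp1b3. FXYD proteins are small single-span membrane proteins that attach to the pump and tune its affinity for ions. Fxyd7 is a brain member of that family and Fxyd6 is expressed in brain and other tissues. Fast-firing parvalbumin-expressing (PV+) interneurons are known for a high demand on this pump.

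The study asked how PV+ interneurons of the cortex change their gene expression when their activity is raised. All 8 samples came from PvalbFlp/+;Neurod6Cre/+ mice of postnatal day 42 to 70, which had received an AAV at postnatal day 1 that carries HA-RPL10a and myc-hM3Dq with flox and fdio elements. These ages are those of the labels, and the study's methods give a slightly later youngest age and a range of days for the injection. Flp from the Pvalb locus switches on an HA-tagged ribosomal protein together with hM3Dq, a receptor that raises firing when its ligand CNO is given, and Cre from the Neurod6 locus removes the construct from pyramidal cells. In 4 samples the mice were given CNO at 1 mg/kg in 5 injections over 48 h, and in the other 4 samples vehicle on the same schedule. Vehicle mice thus carried the receptor too, and no group without the receptor was part of the comparison. Each sample pooled tissue from 4 brains, and RNA bound to the tagged ribosomes was pulled down and sequenced. The spread between samples is therefore that between pools, not between single mice.

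Levels are given as TPM, a unit in which every sample has the same total and which divides counts by transcript length so that genes can be compared, or as CPM, counts relative to the library total after scaling between samples by the TMM method. Changes come from edgeR's quasi-likelihood test on the counts. The estimated counts per sample summed to between 44064161 and 49413273, and 3 counts correspond to 0.0607 to 0.0681 CPM, far below every member. A floor of this kind covers counting error only. The intervals of the log2 fold changes given below also include the spread between samples. Fos, an immediate early gene that follows neuronal activity, lay between 36.9 and 83.7 TPM with CNO and between 13.8 and 20.6 TPM with vehicle (log2 fold change 1.93, SE 0.21, adjusted p = 0.0520 over all genes tested by edgeR). Vehicle replicate 1 stood apart from the other 7 samples. Its mean log2 CPM over 12 PV+ interneuron markers was 5.82, against 6.73 to 7.57 in the others. Pvalb itself was at 300.1 TPM in that sample and between 819.7 and 1160.4 TPM in the rest, and results that rest on this sample are given with and without it. The 12 PV+ markers included Pvalb and Gad1, the enzyme that makes GABA, at mean levels of 907 and 1227 TPM. Markers of other cells were also present, with Slc17a7 of pyramidal cells at 433 TPM, Mbp of oligodendrocytes at 254 TPM, Aqp4 of astrocytes at 13.9 TPM and Cx3cr1 of microglia at 7.13 TPM.

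The 5 genes lie apart in the GRCm38 genome, except that 2 of them share chromosome 9. Atp1b1 (ENSMUSG00000026576) spans chr1:164437109-164458355 on the minus strand and overlaps Nme7 on the plus strand. Atp1b2 (ENSMUSG00000041329) spans chr11:69599736-69605942 on the minus strand. Atp1b3 (ENSMUSG00000032412) spans chr9:96332655-96364442 on the minus strand. Fxyd6 (ENSMUSG00000066705) spans chr9:45370185-45396159 on the plus strand, with Fxyd2 lying 3509 bases beyond its end. Fxyd7 (ENSMUSG00000036578) spans chr7:31042513-31051467 on the minus strand between Fxyd5, 31 bases away on one side, and Fxyd1, 210 bases away on the other. Use of strand in the counting was not stated, so reads of Atp1b1 and Nme7 where they overlap cannot be told apart, although Nme7 had a mean of only 27.1 TPM.

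The coding sequences of the 3 beta subunits are related but distinct, so that reads can be assigned to each. Over aligned coding bases Atp1b1 and Atp1b2 were 66.4% identical, Atp1b2 and Atp1b3 64.2%, and Atp1b1 and Atp1b3 61.8%. The transcripts of the 3 genes had no stretch of 31 bases in common with another gene of the family. Atp1b3 shared 16.2% of its stretches of 31 bases with other genes, mostly with Gm1848, which had a mean of 0.0778 TPM. The value of Atp1b3 is uncertain to the extent that reads were divided between these genes.

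Fxyd6 and Fxyd7 belong to one family by a short signature next to the membrane. Their coding sequences around it are shown because this stretch is what defines the family and because both genes are counted apart in spite of it. They are written 5′ to 3′ from GENCODE release M21 on GRCm38, with the 15 bases that encode the signature in capitals.
Fxyd6: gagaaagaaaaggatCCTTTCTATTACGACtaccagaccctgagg
Fxyd7: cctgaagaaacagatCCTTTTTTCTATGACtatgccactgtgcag
The signature covers coding bases 82 to 96 of Fxyd6 and 49 to 63 of Fxyd7, and 11 of its 15 bases are the same in both genes. Over 237 aligned coding bases the 2 genes were 62.9% identical, with no stretch of 31 bases in common.

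Atp1b1 was by far the most abundant of the 5 mRNAs in the ribosome pull-down, which also held RNA of other cells. With a mean of 1089 TPM over the 8 samples it ranked 53rd by level among the 17495 genes tested. It was followed by Fxyd7 at 67.4 TPM, Atp1b3 at 50.6 TPM and Atp1b2 at 46.1 TPM, and last came Fxyd6 at 23.9 to 35.9 TPM. Atp1b1 exceeded Fxyd7 by 15.9-fold, Fxyd7 exceeded Atp1b3 by 1.31-fold and Atp1b2 exceeded Fxyd6 by 1.48-fold, each in 8 of 8 samples. For each of these 3 pairs the exact sign-flip permutation test over the 8 samples gave p = 0.00781, the smallest that it can give, and 0.0104 after adjustment over 4 pairs. The pairs were neighbours in the order of mean TPM of these same samples, so the p speaks only to how steady that order was between them. Atp1b3 and Atp1b2 were not separated, with Atp1b3 higher in 6 of 8 samples by 1.11-fold (exact sign-flip permutation p = 0.125). All 5 genes passed the filter on low counts in both groups, the lowest count being 614 reads for Fxyd7 in CNO replicate 1.

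**Figure D1:**
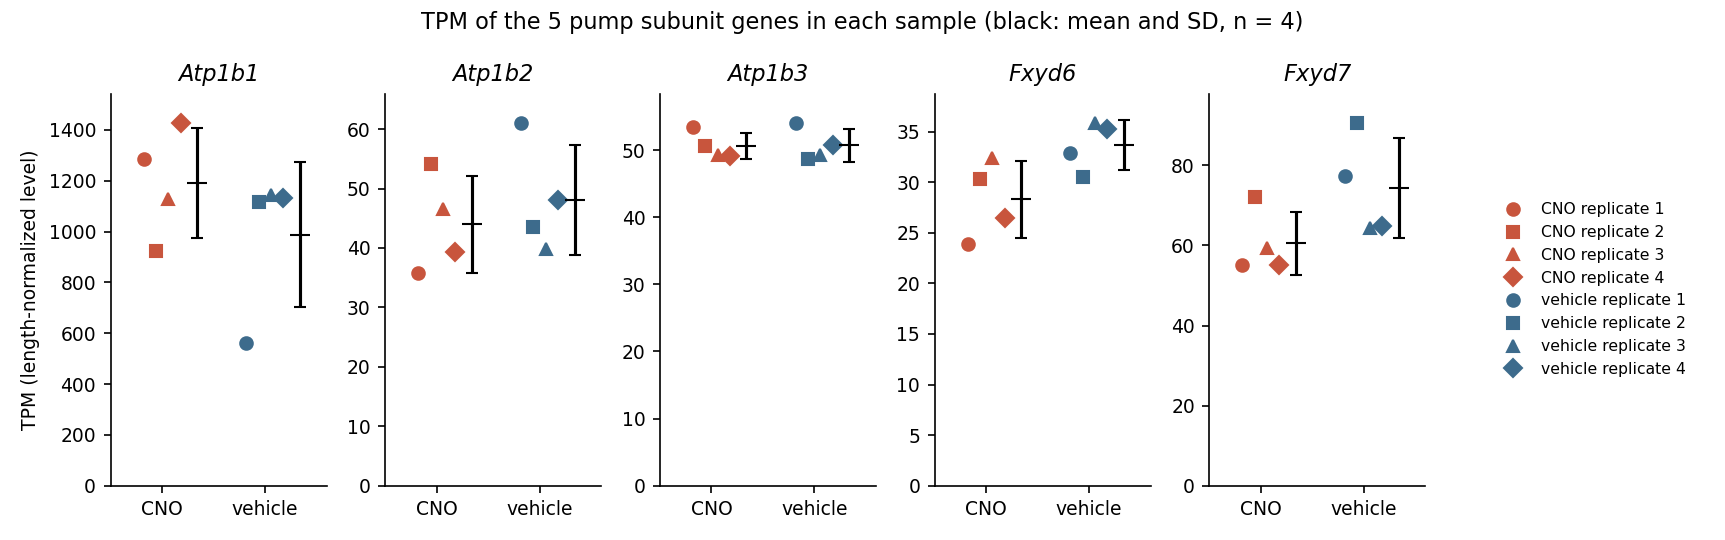
TPM (vertical axes, each from 0) of the 5 pump subunit genes in each of the 4 CNO and 4 vehicle samples, with the mean and SD of each group in black. Vehicle replicate 1 had the lowest Atp1b1 level, 561 TPM, and the highest Atp1b2 level, 61.1 TPM, while Atp1b3 stayed between 48.7 and 54.1 TPM in all samples.

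Activation with CNO moved none of the 5 genes past the threshold. A gene was called where it changed by more than 1.5-fold at an adjusted p below 0.05 and averaged more than 1 TPM. No member was called, in a comparison in which 0 of 17495 genes were (0%). No member had an unadjusted p under 0.05 either, a level that 716 genes reached (4.09%), 252 of them higher and 464 lower with CNO. On log2 TPM, however, limma gave Fxyd6 an unadjusted p of 0.0450 with 1 added and 0.0446 with 0.1 added, and an adjusted p of 0.749 and 0.747. In these fits 940 and 916 of the 17495 genes were under 0.05. The median log2 fold change over all genes was -0.063 and -0.077 there. DESeq2's Wald test called 10 genes and the likelihood ratio test with robust dispersion called 12, again with none of the 5. The study's methods name edgeR with robust dispersion, and the study reported more differentially expressed genes at these cut-offs than any test called here. The 0 given here is that of the quasi-likelihood test. When 200 of the 17495 genes were given a 2-fold change in simulated counts, edgeR's test found 156 (78%), and 8 of its calls were false. A find there needed only an adjusted p below 0.05. The simulated counts had no dispersion particular to each gene and no shift in the mix of cells between samples. The 78% therefore need not hold for the real samples. How often it finds smaller changes, such as the 0.856-fold to 1.27-fold of the members, was not tested. In the real counts Fos was not called, at a log2 fold change of 1.93 and an adjusted p of 0.0520 by edgeR. Of the members, 2 had a log2 fold change above 0 and 3 below, between -0.22 and 0.35, while the median over all genes tested was 0.0014. On the log2 TPM scale 1 was above 0 and 4 below, since Atp1b3 was at -0.0037.

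Atp1b1 encodes the beta1 subunit, the widespread form that neurons also use. It lay at 1284, 923, 1128 and 1429 TPM in CNO replicates 1 to 4. In the vehicle samples it lay at 561, 1116, 1142 and 1132 TPM in the same order. The groups overlapped, with 2 CNO samples above all vehicle samples, CNO replicate 2 below 3 of the vehicle samples, and vehicle replicate 1 below all the others. The mean was 1191 ± 217 TPM (SD, n = 4) with CNO and 988 ± 284 TPM (SD, n = 4) with vehicle. The log2 fold change was 0.35 (SE 0.26), with a 95% interval from -0.22 to 0.92, which spans changes from 0.857-fold to 1.89-fold (adjusted p = 0.817, edgeR). Without vehicle replicate 1 the log2 fold change fell to 0.13 (SE 0.16). With the marker index of PV+ interneurons minus pyramidal cells as a covariate it was -0.066, and with 1 surrogate variable -0.018. With the mean of the astrocyte markers as a covariate it was 0.084 (SE 0.20).

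Atp1b2 encodes the beta2 subunit, which is also known as an adhesion molecule on glia and is abundant in astrocytes. The CNO samples held 35.8, 54.2, 46.5 and 39.4 TPM of it. The vehicle samples held 61.1, 43.6, 39.9 and 48.0 TPM. The groups overlapped over most of their range, and the highest of all values was that of vehicle replicate 1. Means were 44.0 ± 8.15 TPM with CNO and 48.1 ± 9.24 TPM with vehicle (SD, n = 4 each). The log2 fold change was -0.046 (SE 0.12, 95% interval -0.31 to 0.22, adjusted p = 0.922 by edgeR), and it was 0.043 without vehicle replicate 1. It turned to 0.10 with the PV+ minus pyramidal index, to 0.084 with the mean of the astrocyte markers and to 0.088 with 1 surrogate variable as a covariate.

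Atp1b3 encodes the beta3 subunit and was the steadiest member. Its TPM was 53.4, 50.6, 49.2 and 49.1 with CNO and 54.1, 48.7, 49.3 and 50.7 with vehicle. Its coefficient of variation over the 8 samples was 4.05%, against a median of 17.4% over all genes tested, and only 0.995% of the genes varied less. On the CPM scale the 4 CNO samples, 39.9 to 43.8 CPM, lay above the 4 vehicle samples, 37.5 to 39.5 CPM. Such a separation was seen in 423 genes (2.42% of those tested), and Atp1b3 was the 1 member to show it. On the TPM scale it was absent, since the groups ran from 49.1 to 53.4 and from 48.7 to 54.1 TPM. The log2 fold change was 0.12 (SE 0.077, 95% interval -0.048 to 0.29, adjusted p = 0.817, edgeR) from the counts and -0.0037 from log2 TPM, and it was not past the threshold on either scale. In folds the interval ran from 0.967 to 1.22, the narrowest among the 5 genes.

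Fxyd6 gave values of 23.9, 30.3, 32.4 and 26.5 TPM with CNO. With vehicle the values were 32.9, 30.5, 35.9 and 35.3 TPM. Of the 4 CNO samples 3 lay below all vehicle samples, and CNO replicate 3 lay above vehicle replicate 2. Means were 28.3 ± 3.78 and 33.7 ± 2.47 TPM (SD, n = 4 each). The log2 fold change was -0.18 (SE 0.11, 95% interval -0.44 to 0.069, adjusted p = 0.817, edgeR). A two-sided exact permutation of the 70 assignments of log2 TPM gave p = 0.0571, and 0.514 after adjustment over 9 tests on the members and their ratios.

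Fxyd7 gave 55.2, 72.0, 59.4 and 55.2 TPM with CNO and 77.3, 90.7, 64.3 and 64.8 TPM with vehicle. Here too 3 CNO samples lay below all vehicle samples in TPM, while CNO replicate 2 lay above vehicle replicates 3 and 4. On the CPM scale the overlap was larger. There CNO replicate 3, at 14.2 CPM, lay above vehicle replicate 4, at 14.0 CPM. CNO replicate 2, at 16.1 CPM, also lay above vehicle replicate 1, at 16.0 CPM. Means were 60.5 ± 7.96 and 74.3 ± 12.5 TPM (SD, n = 4 each). The log2 fold change was -0.22 (SE 0.14, 95% interval -0.53 to 0.077, adjusted p = 0.817, edgeR), and the exact permutation p was 0.114, or 0.514 after the same adjustment. Both Fxyd genes had a log2 fold change below 0 under all 20 alternatives, from -0.26 to -0.12 for Fxyd6 and from -0.29 to -0.10 for Fxyd7, and passed the threshold on the adjusted p in none. With 4 samples against 4 the smallest exact p is 0.0286, so that after adjustment over 9 tests no single gene could reach 0.05 on its own.

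**Figure D2:**
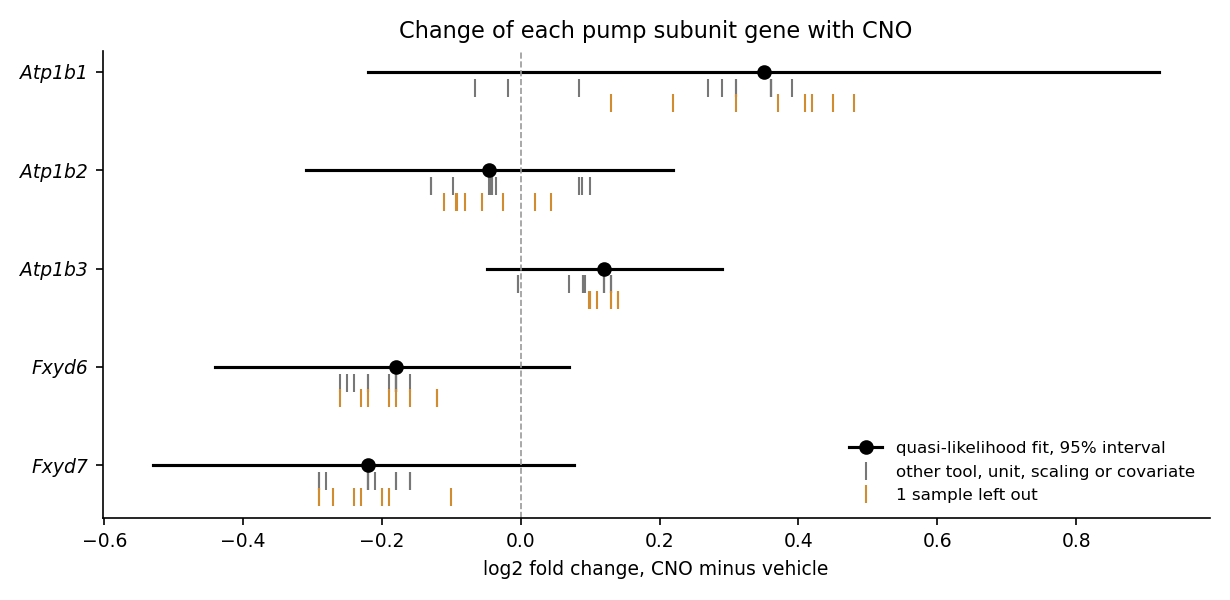
Log2 fold change of CNO against vehicle for each pump subunit gene (horizontal axis), with the quasi-likelihood estimate and its 95% interval in black, other tools, units, scalings or covariates as grey ticks, and fits with 1 sample left out as orange ticks. All 5 intervals cross 0, that of Atp1b1 is the widest, from -0.22 to 0.92, and the ticks of Fxyd6 and Fxyd7 all lie below 0.

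Counting error was smaller than these spreads, least so for Atp1b3, where it was 2.20% to 2.44% of the count against a coefficient of variation of 4.05% between samples. It amounted to between 0.355% and 0.641% of the count for Atp1b1 and to between 3.19% and 4.04% for Fxyd7, the member with the fewest reads. Between samples the coefficient of variation was 23.7% for Atp1b1, 18.2% for Atp1b2, 18.1% for Fxyd7 and 13.3% for Fxyd6. The highest sample exceeded the lowest by 2.55-fold for Atp1b1, 1.70-fold for Atp1b2, 1.64-fold for Fxyd7 and 1.11-fold for Atp1b3.

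The makeup of the beta subunit mRNA was next compared within each sample, since a ratio of 2 genes in 1 sample does not depend on the library total. Atp1b1 made up 89.8% to 94.2% of the summed TPM of the 3 beta subunits in the CNO samples. It made up 83.0% in vehicle replicate 1 and 92.0% to 92.8% in the other vehicle samples. Atp1b2 contributed 2.59% to 5.28% with CNO and 3.24% to 9.03% with vehicle, and Atp1b3 contributed 3.24% to 4.92% and 4.00% to 8.00%. In vehicle replicate 1 Atp1b1 was 9.19 times as abundant as Atp1b2, against 17.0 to 36.3 times in the other 7 samples. The log2 ratio of Atp1b1 to Atp1b2 differed by 0.44 between CNO and vehicle (exact permutation p = 0.429), that of Atp1b1 to Atp1b3 by 0.31 (exact permutation p = 0.343), and that of Atp1b2 to Atp1b3 by -0.13 (exact permutation p = 0.457). None passed after adjustment over the 9 tests, where the adjusted p of each was 0.661. Without vehicle replicate 1 the first difference was 0.066 and the second 0.029.

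Among the 7 Fxyd genes of the tables, Fxyd7 and Fxyd6 supplied most of the mRNA. Together they made up 71.8% to 79.7% of the summed TPM of the family in the 8 samples, with Fxyd7 at 47.2% to 57.8% and Fxyd6 at 19.5% to 27.2%. Fxyd6 was between 0.337 and 0.559 times as abundant as Fxyd7. Their log2 ratio differed by 0.033 between the groups (exact permutation p = 0.914), and its sign changed when some single samples were left out.

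**Figure D3:**
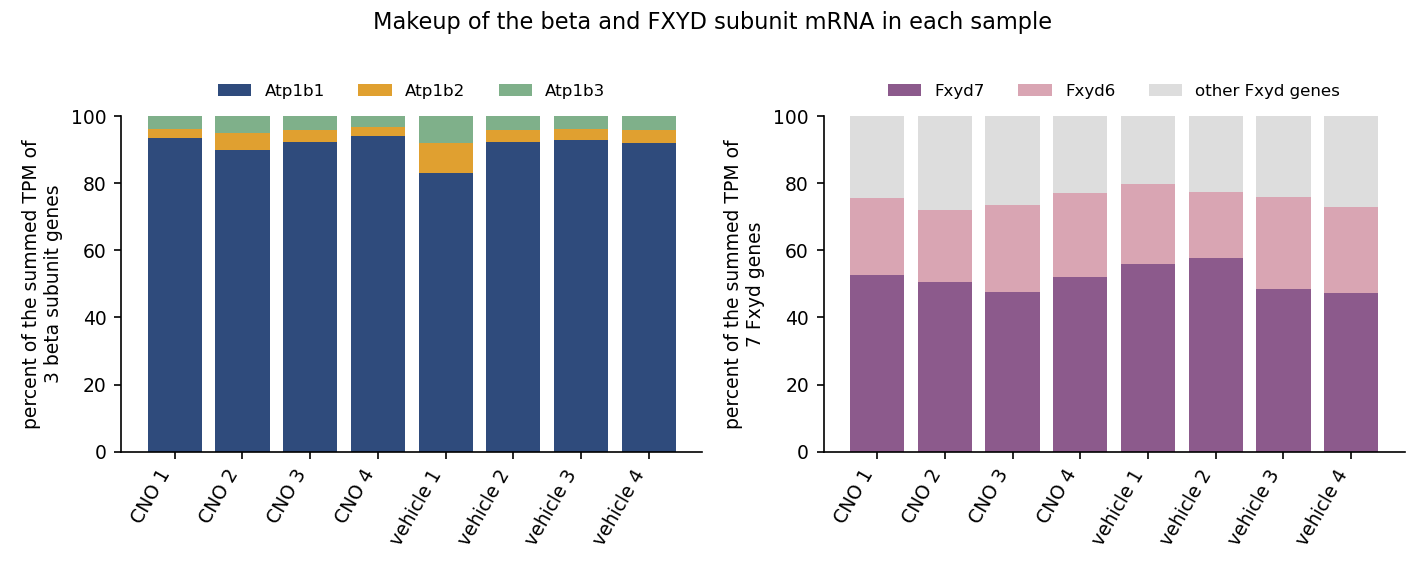
Share of the summed TPM (vertical axes, percent, from 0 to 100) of the 3 beta subunit genes at left and of the 7 Fxyd genes at right, in each CNO and vehicle sample. Atp1b1 fills 83.0% to 94.2% of the beta subunit mRNA, least in vehicle replicate 1, and Fxyd7 is the largest part of the Fxyd mRNA in every sample.

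The members were also read beside the levels of cell type markers, because they fall on different cells in cortex. These relations were chosen after the data had been seen, and they cover 5 genes and 3 marker means, 15 relations in all. Over the 8 samples log2 CPM of Atp1b1 rose with the mean of the 12 PV+ markers, with Pearson r = 0.995 and Spearman rho = 0.976 (exact permutation over 40320 orders, adjusted p = 0.000744 and 0.00595). Leaving out CNO replicate 4 and vehicle replicate 1, the 2 samples farthest from the median, gave r = 0.957. Such a relation was common, since 14.1% of all genes tested had an r above 0.9 with the same mean, but only 17 genes had an r at or above that of Atp1b1, itself included. Its r with the pyramidal cell mean was -0.857 and fell to -0.480 without 2 samples, and with the astrocyte mean it was -0.816, or -0.800 without 2 samples. Taken as deviations from the 2 group means, with samples exchanged only within a group, the r of Atp1b1 was 0.995 with the PV+ mean, -0.821 with the pyramidal mean and -0.776 with the astrocyte mean (exact permutation over 576 orders, p adjusted over 15 relations = 0.0130, 0.0130 and 0.0326). For the PV+ and pyramidal means the unadjusted exact permutation p was 0.00174, the smallest that these orders can give. Without vehicle replicate 1 the r within the groups were 0.982, -0.753 and -0.909.

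Atp1b2 went the other way. Its r with the mean of the 10 astrocyte markers was 0.894 and rho was 0.905 (exact permutation, adjusted p = 0.0222 and 0.0171), and r was 0.911 without CNO replicates 1 and 4. Of all genes tested 4.58% had an r above 0.8 with that mean, and 0.983% had one at or above that of Atp1b2. Within the groups r was 0.924 (exact permutation, adjusted p = 0.0326), or 0.956 without vehicle replicate 1. Its r with the PV+ mean was -0.817 and rho was -0.738 (exact permutation, adjusted p = 0.0241 and 0.0764), and within the groups r was -0.857 (exact permutation, adjusted p = 0.0625). The 1 CNO sample with the lowest PV+ mean, replicate 2, had the highest Atp1b2 level of its group, 54.2 TPM, and the lowest Atp1b1 level, 923 TPM. For Atp1b3, Fxyd6 and Fxyd7 no relation passed after adjustment, the lowest adjusted exact permutation p being 0.0596 for Atp1b3, and none passed within the groups either.

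**Figure D4:**
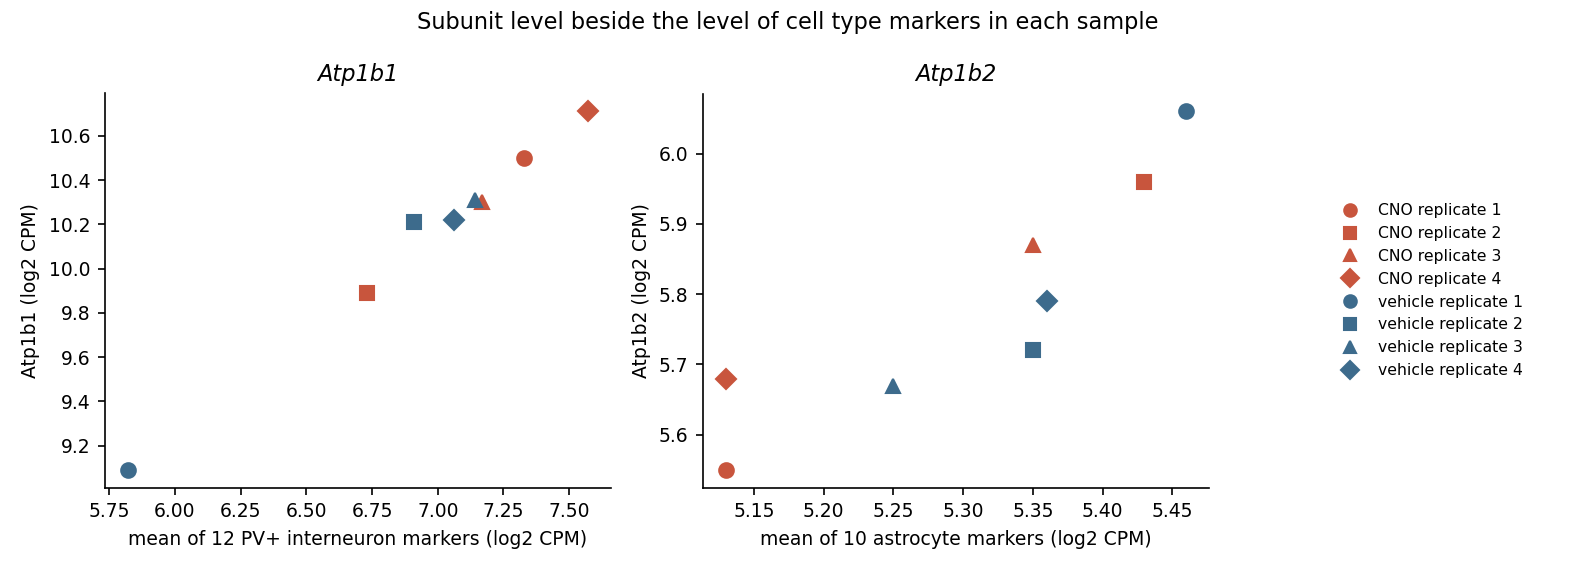
Log2 CPM of Atp1b1 (vertical axis, left) against the average of 12 PV+ interneuron markers, and of Atp1b2 (right) against that of 10 astrocyte markers (horizontal axes, log2 CPM), with 1 point per sample. Atp1b1 and the PV+ mean go together over all 8 samples (r = 0.995), with vehicle replicate 1 at the lower left, and Atp1b2 goes with the astrocyte mean (r = 0.894).

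The markers themselves moved between the groups. All 12 PV+ markers had a log2 fold change above 0, or 11 on the log2 TPM scale (median 0.41), and their summed TPM ran from 2776 to 4255 with CNO and from 1403 to 3384 with vehicle. Of the pyramidal cell markers 11 of 12, or 12 on the log2 TPM scale, had a log2 fold change below 0 (median -0.13), of the astrocyte markers 8 of 10 (median -0.15), of the oligodendrocyte markers 7 of 7 (median -0.24) and of the microglial markers 6 of 6 (median -0.22). All 4 endothelial markers were above 0, or 3 on the log2 TPM scale (median 0.29), and 5 of 8 markers of other interneurons below (median -0.17). At an unadjusted p under 0.05, reached by 4.09% of all genes, 1 of 12 PV+ markers was higher and 1 of 6 microglial and 2 of 8 other interneuron markers were lower, and none of the other 4 lists held any. No marker of these 7 lists was at 0 in all samples. Summed TPM of the astrocyte markers was 271 to 403 with CNO and 328 to 465 with vehicle, and that of the pyramidal markers 1452 to 1988 and 1639 to 2327. Without vehicle replicate 1 the PV+ markers were above 0 in 11 of 12 cases with a median of 0.21. The median was then -0.091 for pyramidal cells, -0.075 for astrocytes, -0.18 for oligodendrocytes, -0.13 for microglia and for other interneurons, and 0.24 for endothelial cells. The part of these shifts in the values of Atp1b1 and Atp1b2 was not tested beyond the covariate fits given with each gene. Fewer cells of a type, less RNA per cell and a less pure pull-down cannot be told apart in such samples.

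The list of other pump genes held 23 genes, of which 19 were tested. It comprised the remaining beta gene, the other Fxyd genes, the Nkain genes, whose products interact with the beta1 subunit, 3 proton pump genes, regulators of the pump, and transporters driven by the gradients it keeps. None passed an unadjusted p under 0.05 by edgeR, against 4.09% of all genes. A log2 fold change above 0 was found in 8, or 7 with scaling by library size only, and below 0 in 11 (median -0.099), where 49.6% of all genes tested were below 0. By group, 1 of 4 other Fxyd genes, 1 of 4 Nkain genes, 2 of 7 gradient transporters and 3 of 3 regulators were above 0. Without vehicle replicate 1 the list split into 4 above and 15 below 0 (median -0.068), with none at an unadjusted p under 0.05 by edgeR. The median over all genes was -0.004 in that fit. Atp1b4 and the gastric pump gene Atp4b were at 0 counts in all 8 samples, which allows up to 0.0681 CPM at the depth of the smallest library.

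Among the other Fxyd genes, Fxyd5 had a mean of 15.4 TPM and a log2 fold change of 0.084, and Fxyd1, also called phospholemman, had 13.0 TPM and -0.15. Fxyd2, the gamma subunit known from kidney, had only 2.05 TPM and a log2 fold change of -0.61 (SE 0.38, adjusted p = 0.817, edgeR), and Fxyd3 had 1.35 TPM and -0.17.

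Of the Nkain genes, Nkain4 had a mean of 16.7 TPM and a log2 fold change of -0.099, Nkain2 10.4 TPM and -0.28, and Nkain1 1.58 TPM and 0.10. The regulators were Pxk, a sorting protein that binds the pump, with 0.22 (SE 0.10), the kinase gene Sik1 with 0.34 (SE 0.22), and Agrn, which encodes agrin, with 0.053 (SE 0.18). The adjusted p of edgeR was 0.817 for Pxk and Sik1 and 0.945 for Agrn. The TPM of Pxk was 51.1 to 56.6 with CNO and 44.5 to 51.5 with vehicle, so that its groups overlapped.

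None of the 7 transporters that use the gradients passed the test. Slc12a5, the potassium-chloride cotransporter of mature neurons, had a mean of 82.6 TPM and a log2 fold change of 0.074 (SE 0.13). Its sodium-dependent counterpart Slc12a2 had 11.8 TPM and -0.063 (SE 0.11). The sodium-calcium exchangers Slc8a1, Slc8a2 and Slc8a3 had -0.31, -0.25 and 0.11. The glial glutamate transporters Slc1a2 and Slc1a3, which are on the astrocyte marker list as well, had -0.22 (SE 0.11) and -0.18 (SE 0.12).

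**Figure D5:**
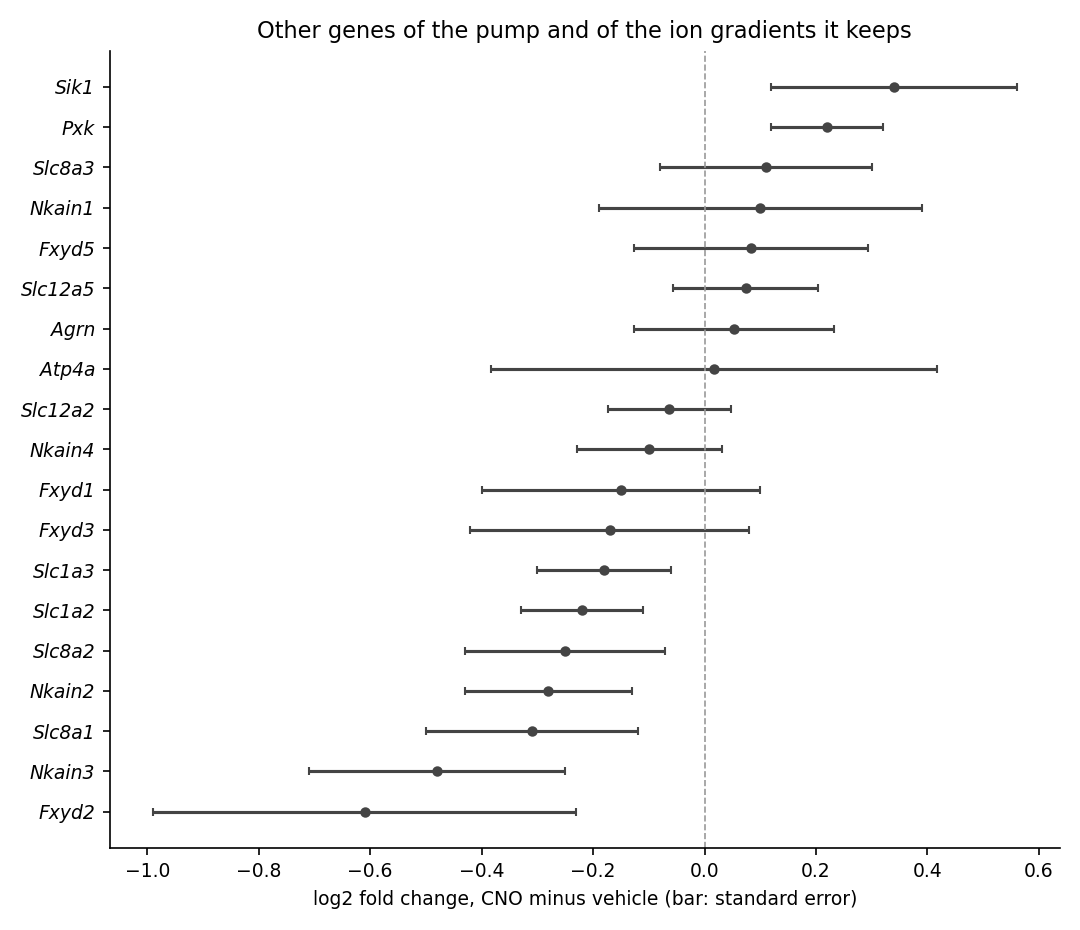
Log2 fold change of CNO against vehicle (horizontal axis) with its standard error for the 19 tested genes of the pump list other than the 5 members, ordered by value. They run from -0.61 for Fxyd2 to 0.34 for Sik1, with 8 above and 11 below 0 and none at an unadjusted p under 0.05.

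Finally, the genes whose levels followed each member most closely over the 8 samples were listed among 9081 genes with a mean TPM above 10, by Pearson r of log2 CPM, as a description. The points share the library and its mix of cells. Nearest to Atp1b1 were Mdh1, the cytosolic malate dehydrogenase, Ndufv2, a subunit of respiratory complex I, and Polr2m, a protein bound to RNA polymerase II, each at r = 0.999. Nearest to Atp1b2 were Doc2a, a calcium sensor of synaptic release, at 0.966, the chromatin remodeller Smarcad1 at 0.960, and the ephrin receptor gene Ephb3 at 0.943. Nearest to Atp1b3 were Prkrir at 0.971, Lgalsl, which encodes a galectin-like protein, at 0.965, and the zinc finger gene Prdm4 at 0.958. Fxyd6 went with Cx3cl1, the chemokine fractalkine, at 0.952, Spon1, an extracellular matrix protein, at 0.947, and the receptor phosphatase gene Ptprf at 0.940. The r of the genes nearest to Fxyd7 was lower, with the scaffold gene Grasp at 0.925, the non-coding RNA Pantr1 and Hgh1, the last at 0.891. None of the 15 neighbours was another member. Ranking by Spearman's rho gave ties, since 102 genes, Polr2m among them, had a rho of 1.000 with Atp1b1, and the order of single neighbours is not resolved by 8 samples.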

How the data were processed

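Ribosome-bound RNA was sequenced in 4 CNO and 4 vehicle samples, with groups and replicate numbers from the sample titles. Per the labels and the study's methods, the authors used FastQC, Trim Galore, STAR and Salmon on GRCm38 (mm10), and tximport for gene-level values. They deposited estimated counts without normalization, and TPM, in which counts are divided by transcript length and scaled to 1000000 per sample. Use of strand was not given in the sources used here.

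Counts were rounded to whole numbers. Genes with under 10 reads in 4 or more samples were left out, and the remaining 17495 were scaled by TMM and tested with the quasi-likelihood test of edgeR 4.0.16 in R 4.3.3, with Benjamini-Hochberg adjustment over all of them. A call needed an adjusted p below 0.05, more than 1.5-fold change and more than 1 TPM on average. Log2 CPM used a prior count of 2. Replicate samples differed by more than sampling noise, with a chi-square per degree of freedom of at least 18.1 in every pair within a group. For single values the exact permutation test was two-sided. Gene positions and coding sequences came from GENCODE M21 on GRCm38, which holds 45143 of 45706 identifiers. Tests were tried on simulated counts. Alternatives used DESeq2 1.42.0, limma 3.58.1 on log2(TPM + 1) or log2(TPM + 0.1), sva 3.50.0, other scalings, filters and covariates, and each sample left out. Figures were made in Python 3.11.15 with matplotlib 3.10.9.

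The members, gene lists and tests were chosen with earlier results of these data known. Named genes are the 5 members, pump list genes with a mean TPM above 1 or an unadjusted p under 0.05, the 3 genes most like each member, 6 cell type markers and Fos. Some genes of the pump list are not reported here and are in none of its counts. Atp1b4, Atp4b, Nme7 and Gm1848 were added after their values were seen. Marker relations, over all samples and within groups, the handling of ties in rho and list counts without vehicle replicate 1 were also added after seeing the data.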

Additional observations from a re-analysis of the deposited data

Results flagged for a closer look

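Vehicle replicate 1 lay far from the other vehicle samples in 2 of 18 groups of 4 that were checked, where chance alone gives about 0.9. For log2 CPM of Atp1b1 its gap to the nearest sample was 0.921 of the range of the group, above the 95% limit of Dixon's test, with 9.09 against 10.21 to 10.31 in the others. For the log2 TPM ratio of Atp1b1 to Atp1b3 the gap was 0.952 of the range, with 3.37 against 4.48 to 4.53. The mean of the PV+ markers was also lowest in that sample, and its part in either value was not tested.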

How the results depend on the processing

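No alternative made a member pass the threshold, and the adjusted p of the members ran from 0.472 to 1.00, although limma gave Fxyd6 an unadjusted p of 0.0450 or 0.0446 at its 2 pseudocounts. Over all genes, 940 or 916 were under 0.05 by limma. Fxyd6 and Fxyd7 kept their sign in all 20 alternatives. Atp1b1 turned to -0.066 with the PV+ minus pyramidal index and to -0.018 with 1 surrogate variable, and ran from 0.13 (without vehicle replicate 1) to 0.48 when single samples were left out. Atp1b2 turned to 0.10 with that index, 0.084 with the astrocyte mean and 0.088 with 1 surrogate variable, and ran from -0.11 to 0.043 on leaving out samples. Atp1b3 was -0.0037 by limma with either pseudocount. The log2 ratio of Fxyd6 to Fxyd7 ran from -0.11 to 0.13 on leaving out samples. The causes were not tested. Genes called over all genes were 12 with robust dispersion, 10 with DESeq2, 4 with no filter, 3 with replicates 1 and 2 against 3 and 4 as a covariate, and 0 to 2 on leaving out samples (2 without CNO replicate 1). Genes at an unadjusted p under 0.05 were 1126 with no filter, 1193 with that covariate, 350 with the astrocyte mean, and 318 to 1683 on leaving out samples, with 396 without vehicle replicate 1, 318 without CNO replicate 4 and 1683 without CNO replicate 2. On the pump list 1 gene was higher at that level with RLE factors, no filter, DESeq2 or the replicate 1 and 2 covariate. Lower were 2 with library size only or limma at either pseudocount. Over the 17495 genes tested, 715 were at that level with RLE factors, 835 with DESeq2 and 865 with library size only. On leaving out samples 0 to 1 genes of the list were higher and 0 to 4 lower. The 4 were found without CNO replicate 2, where 1683 of all genes were at that level. Of the 3 genes nearest each member, without vehicle replicate 1 the number found again was 0 for Atp1b2 and Fxyd7 and 1 for Atp1b3 and Fxyd6. By Spearman's rho, with ties counted, it was 0 for Fxyd6 and Fxyd7 and 1 for Atp1b1, Atp1b2 and Atp1b3.

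With the replicate block the log2 fold changes were 0.39 for Atp1b1, -0.046 for Atp1b2, 0.12 for Atp1b3, -0.19 for Fxyd6 and -0.21 for Fxyd7, with 0 genes called and 765 at an unadjusted p under 0.05, and no call changed. Same-numbered samples had correlations of 0.026, -0.030, 0.161 and 0.239 of their deviations from the group means, and not every sample correlated best with its own number, so the numbers were not taken as pairs. Counting error, which depth sets, was at most 4.04% of a member's count.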
